A study of Bos taurus with 28 samples.

Results

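ACTA2, MYH4, ENO3 and CPT1B are best known from muscle, and all of them were measured in the anterior pituitary of heifer calves. They were chosen from among the muscle related genes that the study lists as differing between its diets. They were thus selected on the measured difference between the diets in these same calves. They make up 4 of the 27607 rows of the deposited table, and all 4 were among the 14939 genes that passed the filter on low values. Their difference between the diets is therefore a description, and where they stand against the limits of a fit across all genes is no independent evidence of it. Whether they moved together from calf to calf on the same diet was not used to choose them, and that agreement was tested.

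The calves were Angus × Holstein-Friesian heifers slaughtered at 21 weeks of age, and messenger RNA was sequenced from the anterior pituitary of each. On the high plane of nutrition (HI, 13 calves by the labels) they were offered 10 L, or 1.5 kg, of milk replacer daily as the allowance at the start of the 8-week calf phase, with concentrate to appetite. On the moderate plane (MOD, 15 calves) they were offered 4 L, or 0.5 kg, with a restricted amount of concentrate. Both allowances were then lowered gradually until weaning. The diets went on for an 11-week phase after weaning. The tissue is a mixture of cell types, so fewer cells of a type and less RNA per cell cannot be told apart. The deposited values are gene counts per 1000000 reads on library sizes adjusted by TMM (CPM). Reads on genes numbered 12669266 to 18217216 in a calf, and a single read was worth 0.0482 to 0.083 CPM. Hormone genes of the anterior pituitary were present in every calf, with prolactin (PRL) at 32023 to 267896 CPM and FSHB, the beta subunit of follicle-stimulating hormone, at 271 to 3289 CPM.

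Muscle contracts when myosin heavy chains pull on actin filaments, and it burns both glucose and fatty acids to pay for that work. ACTA2 is the alpha actin of smooth muscle, found in vessel walls and in pericytes. MYH4 is a myosin heavy chain of fast skeletal fibres. ENO3 is the muscle form of enolase, an enzyme of glycolysis, and CPT1B is the muscle form of carnitine palmitoyltransferase, which lets long-chain fatty acids into mitochondria. The anterior pituitary itself is a gland of hormone-secreting cells threaded by capillaries and holds no skeletal muscle.

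ACTA2 (ENSBTAG00000014614) was the contractile gene with the higher values on MOD. In the HI calves its level ran from 15.1 CPM through a median of 37.3 to 65.9 CPM. In the MOD calves it ran from 19.6 through a median of 58.1 to 137 CPM. The diets overlapped widely, although 12 of 13 HI calves lay below the MOD median and 5 MOD calves lay above every HI calf. The means were 36.0 ± 15.5 CPM (SD, n = 13) on HI and 59.9 ± 30.5 CPM (SD, n = 15) on MOD. The difference was -0.69 (SE 0.25) on the log2(CPM + 0.5) scale, on which fold changes of low genes are understated. ACTA2 shares long stretches of sequence with other actin genes, so some of its reads may belong to them.

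MYH4 (ENSBTAG00000037794), the skeletal myosin, was barely present. It had 2 to 278 reads per calf with a median of 20 reads. On HI its level ran from 0.915 CPM through a median of 1.63 to 19.7 CPM, and on MOD from 0.133 through 0.931 to 4.19 CPM. A single HI calf, number 1707, stood far above all others, at 4.44 times the next highest calf. The means were 3.36 ± 5.04 CPM (SD, n = 13) on HI and 1.10 ± 0.972 CPM (SD, n = 15) on MOD, a difference of 0.95 (SE 0.30) on the log2 scale. Without calf 1707 the HI mean was 2.00 ± 1.12 CPM (SD, n = 12), the ratio of the HI to the MOD mean went from 3.06 to 1.82, and the log2 difference was 0.71. MYH4 sits in a cluster of near-identical myosin heavy chain genes, next to MYH8 and MYH1 in the RefSeq annotation of assembly ARS-UCD2.0, and overlaps LOC132343045. The authors counted reads per gene with the quantMode option of STAR, and how it was set for reads that align to several copies is not given in the sources used here, so the MYH4 values are uncertain to that extent.

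ENO3 (ENSBTAG00000005534), the glycolytic enzyme, had higher values on HI. Its level ran from 9.78 CPM through a median of 13.1 to 28.4 CPM on HI and from 6.72 through 11.0 to 14.1 CPM on MOD. The lower HI calves lay inside the MOD range and 6 HI calves lay above it. The means were 16.7 ± 6.50 CPM (SD, n = 13) and 10.5 ± 2.20 CPM (SD, n = 15), a log2 difference of 0.58 (SE 0.15).

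CPT1B (ENSBTAG00000016048), the carnitine palmitoyltransferase, separated the diets most cleanly of the 4 by overlap. On HI it ran from 28.1 CPM through a median of 39.7 to 54.0 CPM, and on MOD from 18.1 through 25.2 to 36.4 CPM. All 13 HI calves lay above the MOD median, 9 of them above every MOD calf. The means were 40.2 ± 7.89 CPM (SD, n = 13) and 26.7 ± 5.05 CPM (SD, n = 15), a log2 difference of 0.58 (SE 0.10).

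**Figure D1:**
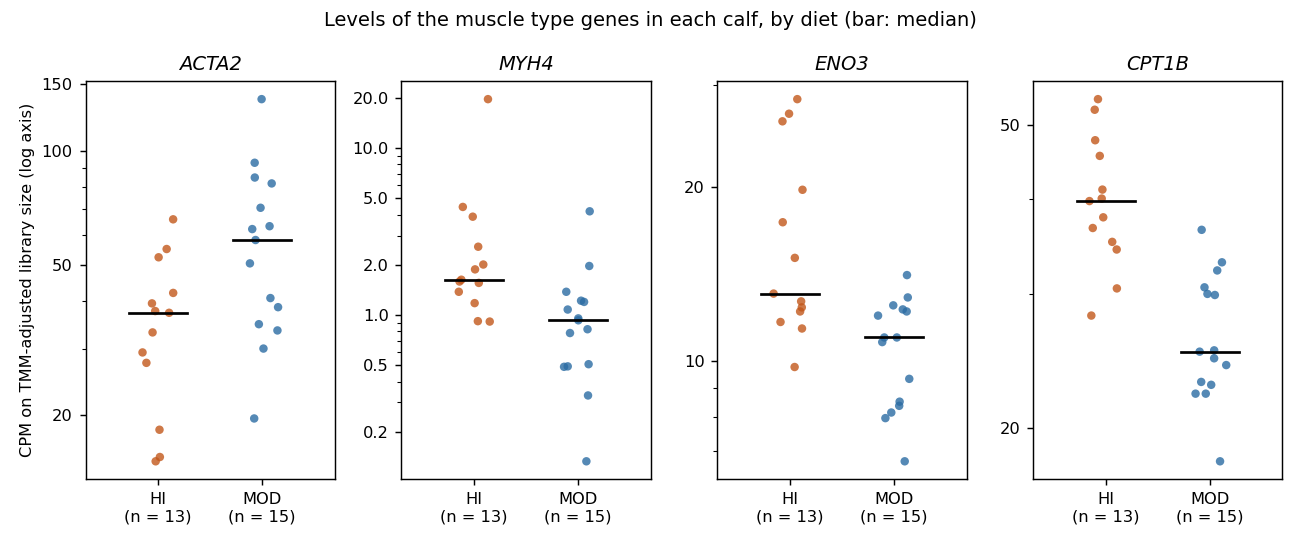
Level of each gene in every calf, in CPM on a log axis that differs between panels; each point is a calf, orange for HI (n = 13) and blue for MOD (n = 15), and the bar is the median. ACTA2 medians were 37.3 (HI) and 58.1 CPM (MOD), CPT1B medians 39.7 and 25.2 CPM, and a single HI calf had 19.7 CPM of MYH4.

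The threshold of the study's list was a fold change of 1.5 at an adjusted p below 0.05. With limma on log2(CPM + 0.5), 0.837% of the genes tested passed both limits and 0 of the 4 members did, while 3.42% passed the adjusted p alone, among them 2 members, ENO3 and CPT1B. Those 2 had HI to MOD fold changes of 1.49 and 1.50, just below the limit on fold. MYH4 at 1.93 and ACTA2 at 0.620 were past the limit on fold and not past the adjusted p. On the recovered reads the quasi-likelihood test of edgeR put 3 of the 4 past both limits, all but ACTA2, where 1.16% of all genes passed. Its exact test put the same 3 past them (1.42% of all genes), and DESeq2 put 2, ENO3 and CPT1B (1.41%). These counts place the members against the study's limits and test nothing, since the list was drawn from the same contrast. The median difference over all genes tested was -0.01, and levels were not compared between genes because transcript lengths were not used here.

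The members differed in how much they varied between calves on the same diet. The SD of log2(CPM + 0.5) within diets was 0.86 for MYH4, higher than in 98.8% of the genes tested, and 0.70 for ACTA2, higher than in 97.7%. It was 0.41 for ENO3 (84.6%) and 0.27 for CPT1B (58.2%), so the enzyme genes lay nearer the middle of all genes. ENO3 varied more on HI, with an SD of 0.51 against 0.30 on MOD. That ratio of 1.69 had a permutation p of 0.0375 and an adjusted p of 0.150 over the 4 members, so it did not pass. For ACTA2, MYH4 and CPT1B the ratios of the HI to the MOD SD were 0.91, 1.48 and 1.04. Without calf 1707 the HI SD of MYH4 was 0.57 in place of 1.03, and the ratio was 0.83. The within-diet SD of 0.86 for MYH4 includes that calf, and sampling of few reads (median 20) adds to it.

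The next question was whether the 4 genes went up and down together from calf to calf, as genes of a single muscle or vessel tissue could. Their agreement was measured for 6 pairs over all calves after subtracting each diet mean, within HI and within MOD, which gives 18 relations. The pairs share each calf's library and scaling. None of the 18 passed an adjusted permutation p of 0.05, by Pearson or by Spearman.

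The contractile pair, ACTA2 and MYH4, had a diet-centred r of 0.27 (95% interval -0.13 to 0.59, permutation p = 0.172, adjusted p = 0.494) and rho of 0.22 (p = 0.252, adjusted p = 0.755). Without the calves farthest from the median, HI 1388 and MOD 1392, r was 0.18. Its r was 0.25 on HI and 0.30 on MOD. The MOD value was 0.07 without MOD 1392 and 0.03 without MOD 1392 and MOD 1690, and rho on MOD was 0.09. The interval runs from a weak negative to a moderate positive relation.

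The enzyme pair, ENO3 and CPT1B, had the highest diet-centred r of the 6 pairs. It was 0.43 (95% interval 0.06 to 0.70, permutation p = 0.0265, adjusted p = 0.386), with a rho of 0.43 (p = 0.0265, adjusted p = 0.259). Without HI 1089 and HI 1707, the calves farthest from the ENO3 median, r was 0.29 (permutation p = 0.165). It was 0.38 on HI and 0.53 on MOD (permutation p = 0.0428, adjusted p = 0.386). The relation did not pass once the 18 relations were counted, and on HI without those calves r was 0.02.

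Between the contractile and the enzyme genes there were 4 pairs. ACTA2 had an r of 0.10 with ENO3 (95% interval -0.29 to 0.46) and of -0.03 with CPT1B (-0.41 to 0.35). MYH4 had an r of 0.24 with CPT1B (-0.15 to 0.57) and of 0.25 with ENO3 (-0.14 to 0.58). The latter was -0.05 without calf HI 1707, which was highest of all 28 in both genes. The adjusted permutation p of these 4 relations ran from 0.494 to 0.901. Their rho values were 0.03, -0.02, 0.25 and 0.12, with adjusted p from 0.755 to 0.994.

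Within a single diet the 95% intervals were wide. On HI, r was 0.35 for ACTA2 and ENO3, 0.07 for ACTA2 and CPT1B, 0.40 for MYH4 and ENO3, and 0.41 for MYH4 and CPT1B. On MOD the same pairs gave -0.23, -0.12, -0.07 and 0.04. Single calves moved the HI values of MYH4 in both directions. With ENO3 it was -0.04 without HI 1707, and with CPT1B it was 0.76 (permutation p = 0.00785, not adjusted) without HI 553 and HI 1707. For no pair did the difference of r between the diets pass a permutation test of the diet labels. The smallest p was 0.227, for ACTA2 and ENO3, with an adjusted p of 0.710 over the 6 pairs. Against reads on genes, the r of the members lay between -0.11 and 0.07 (adjusted permutation p = 0.735 for each).

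Pooled over all 28 calves without centring, r was 0.67 for ENO3 and CPT1B, 0.51 for MYH4 and CPT1B, and 0.47 for MYH4 and ENO3. It was -0.36 for ACTA2 and CPT1B, -0.20 for ACTA2 and ENO3, and -0.02 for ACTA2 and MYH4. These pooled values hold the diet difference by which the genes were listed and carry no test.

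**Figure D2:**
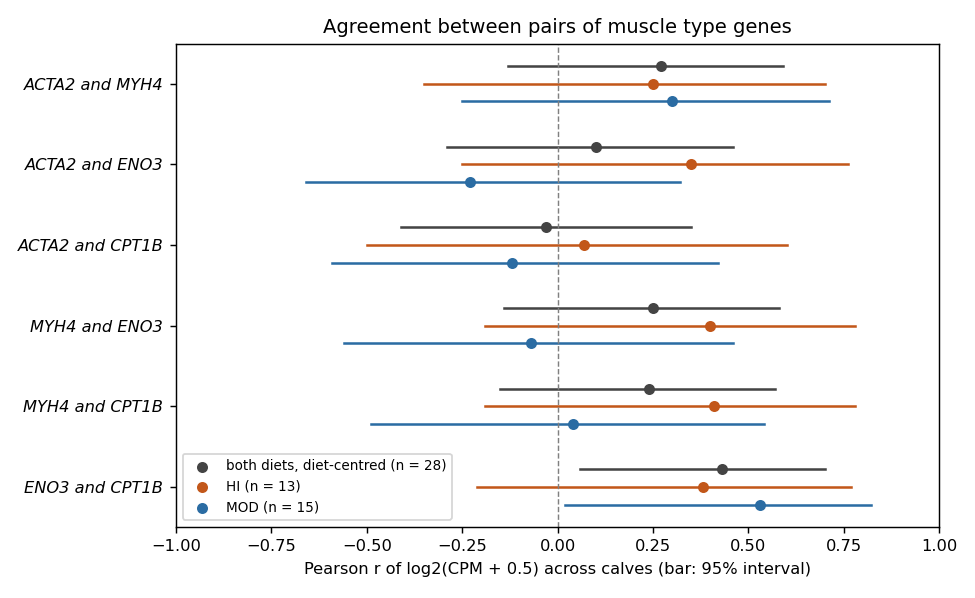
Pearson r of log2(CPM + 0.5) between pairs of members across calves, diet-centred over 28 calves (grey), in HI (orange) and in MOD (blue); bars are 95% intervals. ENO3 and CPT1B had the highest diet-centred r, 0.43, and no relation passed an adjusted p of 0.05 over the 18.

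Calf HI 1707 had the highest MYH4 and ENO3 of all 28. Its MYH4 was 12.1 times the HI median and its ENO3, at 28.4 CPM, 2.18 times. Its CPT1B was 1.20 times the HI median and ranked 3 of 28. Its ACTA2 was 1.01 times the HI median, and LMOD1, a leiomodin of smooth muscle filaments, was 0.695 times. The third vessel wall gene with an identifier, the channel TRPC6, went the other way at 1.28 times, and ranked 5 of 28. The cardiac myosin MYH6 was 1.48 times the HI median there. Over the whole table, 21 rows reached 1 CPM and at least 4 times the next highest calf in some calf. In calf 1707 these were MYH4 and ENSBTAG00000031468, which has no symbol here and was named after its values were seen. With at least 2 times the next calf, 13 rows stood out in calf 1707, against a median of 2.5 and a highest number of 28 per calf. Other skeletal muscle genes, such as CKM or ACTA1, have no identifier in the pairing used and were not analysed here.

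**Figure D3:**
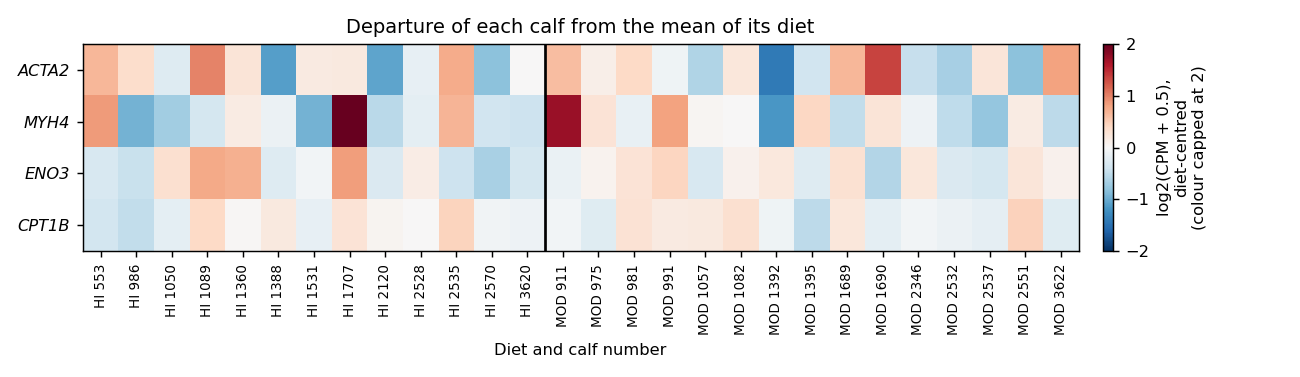
Departure of each member in each calf from the mean of its diet, in log2(CPM + 0.5), with the colour scale capped at 2; columns are calves by diet and number. Red (higher) and blue (lower) calves differ between the rows, and HI 1707 is highest in both MYH4 and ENO3.

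Each member was then set against 7 genes of known role, which gives 28 diet-centred relations. They were LMOD1 and TRPC6, a cation channel of vascular smooth muscle, the cardiac myosin MYH6, and PDK4, a kinase that restrains glucose oxidation. The others were PRL, CSHL1 (a growth hormone family gene) and EGR1, an immediate early transcription factor. A single relation of the 28 passed, that of CPT1B with PRL.

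CPT1B and PRL had an r of 0.68 (95% interval 0.40 to 0.84, permutation p = 0.000130, adjusted p = 0.00364) and a rho of 0.64 (p = 0.000420, adjusted p = 0.0118). PRL ran from 70067 CPM through a median of 191905 to 267896 CPM on HI, and from 32023 through 76114 to 145609.8 CPM on MOD. Calves rich in prolactin RNA for their diet tended to be the calves with more CPT1B. Without HI 2535 and MOD 2551, farthest from the CPT1B median, r was 0.62, and it stayed between 0.63 and 0.71 with each calf left out in turn, passing in 28 of 28 fits. With library totals that leave out PRL and CSHL1, with other size factors or with other pseudocounts it was 0.65 to 0.68. Within HI r was 0.79 (permutation p = 0.00136) and within MOD 0.55 (p = 0.0328), with adjusted p of 0.0762 and 0.411 over the relations within diets. The within-MOD value was 0.23 without MOD 1395 and MOD 2551. CSHL1, the other hormone gene of very high level, had an r of 0.38 with CPT1B (permutation p = 0.0499, adjusted p = 0.452), 0.64 on HI (p = 0.0184, adjusted p = 0.391) and 0.12 on MOD. Without HI 2535 and MOD 2551 the r of CSHL1 with CPT1B was 0.13 (permutation p = 0.527). In order of r with CPT1B, PRL ranked 63 of 14938 genes, so the relation is not shown to be particular to PRL. For CPT1B and PRL the difference of r between the diets had a permutation p of 0.295 (adjusted p = 0.974 over the 28 pairs).

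For the other members no relation with PRL passed. Its r was 0.32 with MYH4 (95% interval -0.06 to 0.63), 0.10 with ENO3 (-0.29 to 0.46) and -0.01 with ACTA2 (-0.39 to 0.37), with adjusted permutation p from 0.576 to 0.958. The differences among these r values were not tested. With the level of PRL as a term, the log2 difference of CPT1B between the diets was 0.28 (SE 0.10) in place of 0.58. That of ACTA2 was -0.68 (SE 0.36), of ENO3 0.51 (SE 0.21) and of MYH4 0.49 (SE 0.41). PRL was itself listed by the study for its diet difference, and the part that prolactin cells have in the level of CPT1B was not tested.

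**Figure D4:**
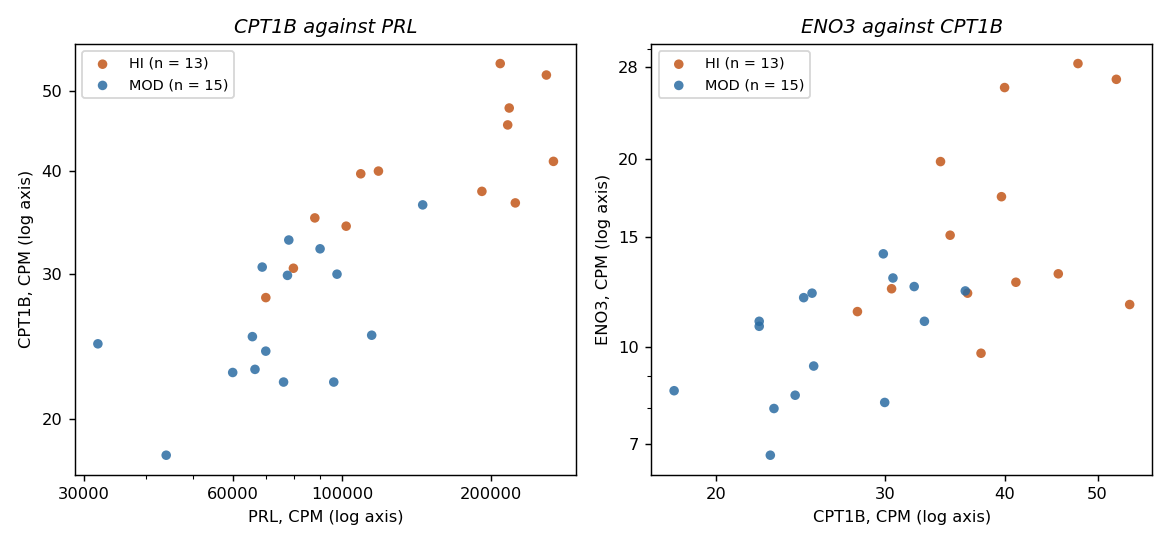
Left, CPT1B against PRL; right, ENO3 against CPT1B; all axes are CPM on log scales and each point is a calf, orange for HI (n = 13) and blue for MOD (n = 15). CPT1B and PRL had a diet-centred r of 0.68, ENO3 and CPT1B one of 0.43.

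No relation of ACTA2 with the other vessel wall genes that carry an identifier passed. LMOD1 ran from 1.84 CPM through a median of 3.68 to 5.02 CPM on HI and from 2.16 through 4.76 to 11.0 CPM on MOD. Its r with ACTA2 was -0.20 (95% interval -0.54 to 0.19, adjusted permutation p = 0.836), with rho -0.18 (adjusted p = 0.879). That value pools opposite signs, an r of 0.40 on HI (permutation p = 0.168) and of -0.50 on MOD (p = 0.0589). Without HI 1388 and HI 2120 the HI value was -0.13. Without MOD 1392 and MOD 1690 the MOD value was -0.64 (permutation p = 0.0217, not adjusted). With all calves, the difference between the diets, 0.90, had a permutation p of 0.0189 and an adjusted p of 0.264 over the 28 pairs. TRPC6, at 0.435 to 4.74 CPM, had an r of 0.16 with ACTA2 (95% interval -0.23 to 0.51). ACTA2 and MYH6 likewise had an r of 0.63 on HI (permutation p = 0.0209) and of -0.31 on MOD (p = 0.258). Without the same calves these were 0.34 on HI and -0.55 on MOD (permutation p = 0.0564 on MOD, not adjusted). With all calves, the difference between the diets for ACTA2 and MYH6, 0.95, had a permutation p of 0.00741 and an adjusted p of 0.207. Neither difference passed. The highest diet-centred r of ACTA2 among the 7 was that with PDK4, at 0.37 (adjusted permutation p = 0.452). LMOD1 and TRPC6 are counted from 28 and 6 reads upward per calf, so sampling of reads adds to their spread.

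MYH4 and MYH6, both striated muscle myosins, had an r of 0.27 (95% interval -0.13 to 0.59, adjusted permutation p = 0.721). That r was 0.24 on HI and 0.31 on MOD. Without HI 553 and HI 1707 the HI value was -0.12. Without MOD 911 and MOD 1392 the MOD value was 0.69 (permutation p = 0.00991, not adjusted). MYH6 ran from 5.12 CPM through a median of 14.4 to 26.4 CPM on HI and from 3.21 through 5.97 to 12.3 CPM on MOD. ENO3 had its highest r of the 7 with TRPC6, at 0.56 (95% interval 0.22 to 0.77, permutation p = 0.00907, adjusted p = 0.127), with rho 0.53 (adjusted p = 0.117). It did not pass, except in 1 of 28 fits with a calf left out, that without HI 1360. CPT1B had an r of -0.15 with PDK4, the other fuel gene, and a rho of -0.35 (adjusted permutation p of 0.836 and 0.524).

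**Figure D5:**
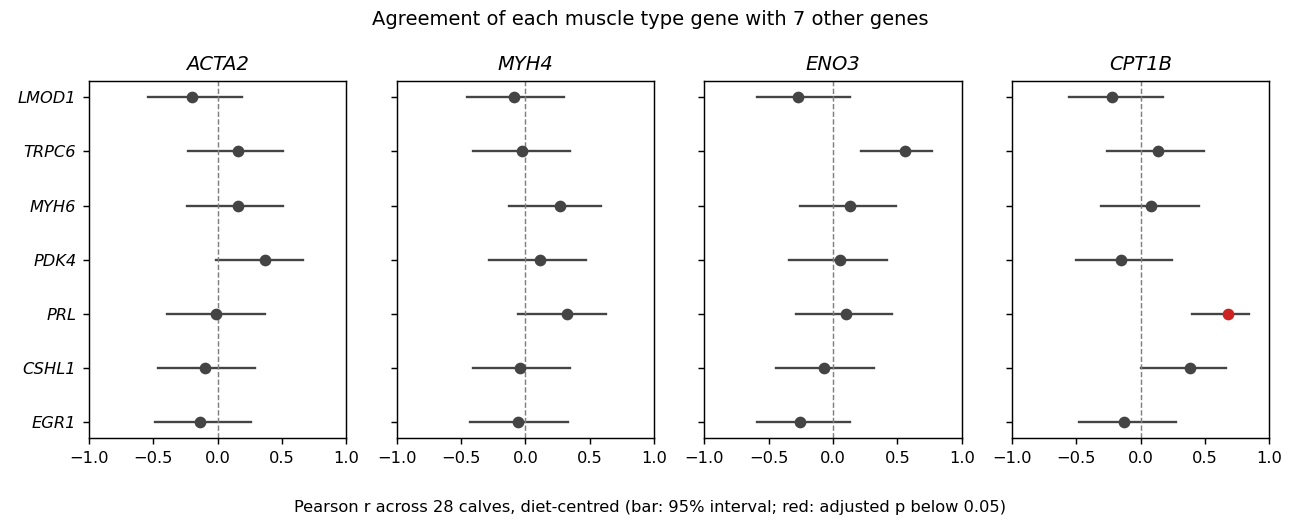
Diet-centred Pearson r of each member with 7 other genes over 28 calves, with 95% intervals; red marks an adjusted p below 0.05. The relation of CPT1B with PRL (r = 0.68) is the single red point, and that of ACTA2 with LMOD1 lies below 0 at -0.20.

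Beyond these 7 genes, each member's level was fitted to every other gene with limma at a given diet. At an adjusted p below 0.05, 14 genes (0.0937%) went with ACTA2, 11 of them positively, 1 (0.00669%) with ENO3 and 0 (0%) with MYH4. For MYH4, 724 of the 14938 other genes had an unadjusted limma p below 0.05, near the share that this threshold alone lets through. The number was 774 for ENO3, 1665 for ACTA2 and 3940 for CPT1B. No other tool was run. None of the genes that went with ACTA2 or ENO3 has a symbol here. The number that went with ENO3 was 0 in 14 of 28 fits with a calf left out. The number that went with ACTA2 was 75 without HI 2535, 38 without HI 553, 26 without MOD 1392, 22 without MOD 991, 9 without HI 1388 and 5 without MOD 1690.

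CPT1B went with 951 genes (6.37%), 649 positively and 302 negatively. Single calves carried that number. It was 0 without MOD 2551, 12 without HI 986, 23 without HI 2535, 355 without HI 1050, 594 without HI 1531, 603 without MOD 975 and 1606 without MOD 1057. It was 10 with library totals that leave out PRL and CSHL1. Of the 158 other genes with a symbol, 11 (6.96%) were among the 951, a share near that of all genes. The 10 positive ones were PRL, TTC9B, CLEC3B, WFIKKN1, DIO3, BEAN1, CACNA1I, DRD2, TMEM205 and GPC5, and the negative one was ZNF750. In the reverse fit, 34 genes (0.228%) went with PRL, and CPT1B was among them at a slope of 0.30 (SE 0.06, limma adjusted p = 0.0366).

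The genes with a symbol whose pattern was most like each member, by diet-centred r over 28 calves, differed from member to member. For ACTA2 they were RLBP1 (r = 0.52), a carrier of retinaldehyde, CES4A (0.50), a carboxylesterase, and ALDH1A3 (0.49), which makes retinoic acid. For MYH4 they were GPX3 (0.58), a secreted glutathione peroxidase, CSGALNACT1 (0.52), an enzyme of chondroitin sulphate synthesis, and CLEC2L (0.46). For ENO3 they were DIRAS2 (0.59), a small GTPase, TRPC6 (0.56) and CACNA1I (0.55), a calcium channel. For CPT1B they were PRL (0.68), TTC9B (0.67) and CLEC3B (0.64), which encodes tetranectin. Genes without a symbol often ranked higher. Among the 14938 other genes, RLBP1 ranked 235 for ACTA2, GPX3 ranked 15 for MYH4, DIRAS2 ranked 12 for ENO3 and PRL ranked 63 for CPT1B. These r values were picked as the highest and carry no test.

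Many other genes lay between the members when all genes were ranked. In order of r with ACTA2, MYH4 ranked 2009, ENO3 4853 and CPT1B 8012 of 14938 genes. In order of r with MYH4, ACTA2 ranked 1341, ENO3 1516 and CPT1B 1646. In order of r with ENO3, CPT1B ranked 213, MYH4 1574 and ACTA2 4941. In order of r with CPT1B, ENO3 ranked 1620, MYH4 3483 and ACTA2 7375.

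The wider group of muscle related genes in the study's list pointed both ways between the diets. Of 14 such genes, 8 had higher values on HI and 6 lower. Past both limits, which 0.837% of all genes tested passed, MYH6 and PARVB, a parvin of cell adhesions, rose on HI. LPL, a lipase that frees fatty acids from blood lipoproteins, RRAD, a small GTPase first known from muscle, and MSC, the transcription factor musculin, fell. These and the genes of the lists that follow carry a symbol because the study listed them for this contrast, so neither counts nor directions are independent evidence. Of 17 smooth muscle and vessel wall genes listed, 3 have an identifier here, and 0 of those passed both limits. Of 35 striated muscle genes, 2 have one, MYH4 and MYH6. Of 13 genes of muscle energy use, 6 have one, of which ENO3 and CPT1B had higher values on HI. The other 4 had lower values, 2 of them past both limits, LPL and TXNIP, a thioredoxin-binding protein that restrains glucose uptake. Of 9 endothelial genes, MMRN1, a multimerin, alone has an identifier, at 5.38 ± 1.09 CPM on HI (SD, n = 13) and 3.60 ± 1.44 CPM on MOD (SD, n = 15). Its diet-centred r with ACTA2 was -0.29. Of the pericyte and fibroblast genes listed, 0 have an identifier in the pairing used, so the vessel content of the pieces was not followed beyond these genes.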

How the data were processed

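Messenger RNA was sequenced from the anterior pituitary of 28 calves. Per the labels, the authors used FastQC 0.11.8, cutadapt 2.6, STAR 2.6.1 and edgeR 3.5 (the paper names other versions), with genome build ARS-UCD1.2. The deposited signal is CPM on TMM-adjusted library sizes, although the table is described as counts. Whole reads were recovered, with 100.0% of positive values within 0.01 of a whole read. Groups and calf numbers came from the labels, by which 13 calves were on HI and 15 on MOD (the paper has equal groups). No libraries agreed within sampling noise (smallest chi-square per gene 12.2), and 0 columns were left unmapped. Nothing states that samples were processed in batches. Symbols came from the study's supplementary list, which pairs 159 of its 195 identifiers, and its fold changes and adjusted p-values were not used.

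Genes were filtered with filterByExpr (edgeR 4.0.16) and fitted on log2(CPM + 0.5) with limma 3.58.1 (R 4.3.3), trended and robust, with Benjamini-Hochberg adjustment. On recovered reads, the edgeR quasi-likelihood test, its exact test and DESeq2 1.42.0 were alternatives. Simulated data with 200 changed genes gave 196 recovered and 1 false call for the diets. For the level of a member they gave 200 recovered and 8 false calls. Whether these numbers hold for the measured data was not tested. In the measured data, the number of genes going with CPT1B ran from 0 to 1606 with each calf left out. Correlations used two-sided permutation of calves within diets with 100000 resamples (Python 3.11.15), and 95% intervals by Fisher's transformation, which cover sampling of calves only. The named genes are the 4 members, 7 partners, the 3 genes with a symbol of highest r with each member, and list members with an identifier. The members and lists were chosen with earlier results of these data known. The fits of member levels to all genes, the comparison of SDs, the PRL term, the relations within diets for partners, their fits with each calf left out and their differences of r between diets were added after seeing the data.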

Additional observations from a re-analysis of the deposited data

How the results depend on the processing

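Over all genes the diets gave 125 calls with limma, 95 to 150 with other pseudocounts, filters or size factors, 174 with the edgeR quasi-likelihood test, 212 with its exact test and 211 with DESeq2. Of the members 0 passed both limits with limma, 2 with a pseudocount of 0.1 or with DESeq2 (ENO3 and CPT1B), 1 with RLE size factors (CPT1B) and 3 with the quasi-likelihood or exact test (all but ACTA2). The log2 differences of the members kept their sign throughout, from -0.79 to -0.59 for ACTA2, 0.71 to 1.07 for MYH4, 0.51 to 0.63 for ENO3 and 0.55 to 0.62 for CPT1B with each calf left out, and pseudocounts of 1 and 0.1 gave 0.76 and 1.24 for MYH4. The largest move was that of MYH4 in the count tests, to 1.59 with the quasi-likelihood and 1.60 with the exact test, against 0.95, while DESeq2 gave 0.82. With the PRL term, added after seeing the data, CPT1B gave 0.28 and MYH4 0.49 (SE 0.41), and the cause was not tested. Among the member pairs 0 relations passed, diet-centred or within a diet, under each scaling, pseudocount and rank alternative, without the 2 calves farthest from the median, and with each calf left out. Among the pairs with other genes 1 passed, and 1 to 2 with each calf left out, a step added after seeing the data. The number of genes going with a member, for which every alternative was added after seeing the data, ran with each calf left out from 5 to 75 for ACTA2, 0 to 1 for ENO3, 0 to 1606 for CPT1B and stayed at 0 for MYH4. For CPT1B it was 10 with library totals without PRL and CSHL1, for ACTA2, ENO3 and MYH4 13, 1 and 0, and the cause was not tested. No paired analysis was possible because the calf numbers of the diets are all different and the labels do not give the blocks. Few reads limit MYH4 most, with as few as 2 in a calf, and 13 and 15 calves leave wide intervals for r within a diet.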
